A study of Homo sapiens with 18 samples.

Results

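Peaks from profiling of the fusion protein AML1-ETO after knockdown of the microRNA miR-130a were compared between antibodies against ETO and against the Flag tag. A call with 1 antibody does not by itself show binding by the fusion. A site was a run of overlapping peaks of the anti-ETO and anti-Flag lists, with at least 1 bp of overlap, and each site was placed in 1 of 3 classes by the antibodies that called it. The knockdown lists gave 31815 sites, out of 35622 merged regions over all 4 single-antibody lists of the series. Of these sites, 13924 were called with both antibodies, 8306 with anti-ETO only and 9585 with anti-Flag only. The cells were Kasumi-1, a human acute myeloid leukaemia line with the t(8;21) translocation, carrying Flag-tagged AML1-ETO. Both groups compared here were miR-130a KD cells sorted as viable GFP+ cells 3 days after transduction, with 200000 cells per condition and 3 libraries per antibody (ETO Santa Cruz sc-134335, and Flag). The control groups had the same tagged cells, sorting and day, and differed by lacking the knockdown. How the tag was brought in, whether untagged AML1-ETO was also present and what the control vector held are not given in the sources used here.

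AML1-ETO joins the DNA-binding Runt domain of RUNX1 (AML1) to nearly all of RUNX1T1 (ETO). RUNX proteins bind DNA as partners of CBFB, and the ETO portion recruits corepressor complexes with NCoR and histone deacetylases, through which the fusion is known to hold back myeloid differentiation. An antibody against ETO can also recognise the unfused protein or a related family member where one is present, while the Flag antibody recognises the tag. CUT&RUN cuts out the DNA around an antibody bound in unfixed, permeabilised cells, with a nuclease tethered to that antibody, and the freed fragments are sequenced.

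Each antibody and condition had 1 deposited list of intervals, with no height, score or value per library. The 3 libraries of a group cannot be separated in it, so their spread is unknown and nothing could be tested across libraries. The differences below are descriptions of 2 lists. Their 95% Wilson intervals (Newcombe for differences) cover counting error over sites only, and neighbouring sites are not independent. The depth behind each call is unknown, and libraries were planned at about 40 M paired reads of 75 bp, from fragments of 150 to 400 bp.

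The classes can be seen at 6 gene starts, chosen as the list genes with the widest site of a single class over their start window. The RefSeq windows (GRCh38.p14) run from 250 bases before to 50 bases after the start, 5′ to 3′ on the strand of the gene. A gene can have several (34961 windows for 27195 genes). Those printed for GFI1 and BATF2 are at starts inside the gene bodies (chr1:92473043-92486925 and chr11:64987945-64996971), not at their 5′ ends. Capitals mark GGGCGG (an Sp1-type GC box), CCGGAA (an ETS-type core) or TGTGGT (a RUNX core) on either strand. The first pair, JUNB (an AP-1 transcription factor) and GFI1 (a repressor that guides granulocyte development), lay whole within sites of both antibodies. The second pair, RPS25 (a ribosomal protein) and CEBPB (a C/EBP transcription factor of myeloid cells), lay whole within ETO-only sites. The last pair, AZU1 (azurocidin of neutrophil granules) and BATF2 (an AP-1 family member), overlapped Flag-only sites over 174 and 24 of the 300 bases.
JUNB (chr19:12791236-12791535, + strand): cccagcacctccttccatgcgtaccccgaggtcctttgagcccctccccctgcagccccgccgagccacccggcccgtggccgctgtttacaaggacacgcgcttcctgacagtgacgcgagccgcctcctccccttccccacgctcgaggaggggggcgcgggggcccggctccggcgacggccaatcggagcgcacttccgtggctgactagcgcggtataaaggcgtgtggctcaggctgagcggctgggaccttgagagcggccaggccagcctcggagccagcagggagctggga
GFI1 (chr1:92483765-92484064, - strand): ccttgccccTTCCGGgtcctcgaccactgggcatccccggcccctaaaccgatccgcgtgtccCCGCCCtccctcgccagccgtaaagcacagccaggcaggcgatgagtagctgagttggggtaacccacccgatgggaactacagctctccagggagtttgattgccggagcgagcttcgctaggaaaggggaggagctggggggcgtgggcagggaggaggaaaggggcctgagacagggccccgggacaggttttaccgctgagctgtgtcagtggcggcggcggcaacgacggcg
RPS25 (chr11:119018294-119018593, - strand): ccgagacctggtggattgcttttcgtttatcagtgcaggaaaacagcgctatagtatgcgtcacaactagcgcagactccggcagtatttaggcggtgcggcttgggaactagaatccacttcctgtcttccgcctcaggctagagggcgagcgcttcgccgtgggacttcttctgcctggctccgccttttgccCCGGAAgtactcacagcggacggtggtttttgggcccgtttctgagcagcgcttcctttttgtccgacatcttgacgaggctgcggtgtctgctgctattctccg
CEBPB (chr20:50190333-50190632, + strand): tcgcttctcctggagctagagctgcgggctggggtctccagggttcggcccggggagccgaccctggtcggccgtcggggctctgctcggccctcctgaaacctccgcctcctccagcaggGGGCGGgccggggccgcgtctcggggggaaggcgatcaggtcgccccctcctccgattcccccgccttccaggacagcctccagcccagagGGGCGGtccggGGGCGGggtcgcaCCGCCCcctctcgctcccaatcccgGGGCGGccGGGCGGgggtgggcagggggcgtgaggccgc
AZU1 (chr19:827587-827886, + strand): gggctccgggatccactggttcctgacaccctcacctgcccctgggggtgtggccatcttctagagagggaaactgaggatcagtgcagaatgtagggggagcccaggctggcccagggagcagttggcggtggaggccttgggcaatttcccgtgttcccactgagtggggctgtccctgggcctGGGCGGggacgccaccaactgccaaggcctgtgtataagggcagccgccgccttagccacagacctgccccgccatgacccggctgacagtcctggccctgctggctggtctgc
BATF2 (chr11:64990228-64990527, - strand): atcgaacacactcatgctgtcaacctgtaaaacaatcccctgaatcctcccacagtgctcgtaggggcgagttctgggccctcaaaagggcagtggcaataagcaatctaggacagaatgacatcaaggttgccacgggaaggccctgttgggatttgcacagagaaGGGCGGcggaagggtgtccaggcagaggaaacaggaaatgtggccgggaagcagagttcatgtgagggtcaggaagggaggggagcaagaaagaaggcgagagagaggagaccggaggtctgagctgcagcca

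No printed window held TGTGGT. The CEBPB window held 6 matches to GGGCGG, the GFI1, AZU1 and BATF2 windows 1 each, and the JUNB and RPS25 windows none. CCGGAA occurred once each in the GFI1 and RPS25 windows. The ETO-only site at CEBPB spanned chr20:50190262-50191551 (1290 bp), and that at RPS25 chr11:119018148-119019469 (1322 bp). At both genes, both antibodies had a call in the control lists, so only the anti-Flag call of the knockdown list was absent there. The Flag-only site at AZU1 spanned chr19:826145-827760 (1616 bp) and that at BATF2 chr11:64990504-64990787 (284 bp), and neither had a control call with either antibody.

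Sites of both antibodies made up 43.8% of all knockdown sites (interval 43.2 to 44.3%), ETO-only sites 26.1% (25.6 to 26.6%) and Flag-only sites 30.1% (29.6 to 30.6%). In the control lists, 12310 of 23636 sites were called with both, 1480 with anti-ETO only and 9846 with anti-Flag only. The ETO-only class therefore held 26.1% of sites in the knockdown lists and 6.26% in the control lists. Of the 22594 ETO peaks of the knockdown, 14288 met a Flag peak, and of the 25961 Flag peaks, 16376 met an ETO peak. In base pairs, 8.62 Mb was covered by both antibodies, which was 57.6% of the length of the ETO peaks and 65.4% of that of the Flag peaks. No list length is free of the calling threshold, which is not given in the sources used here.

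**Figure D1:**
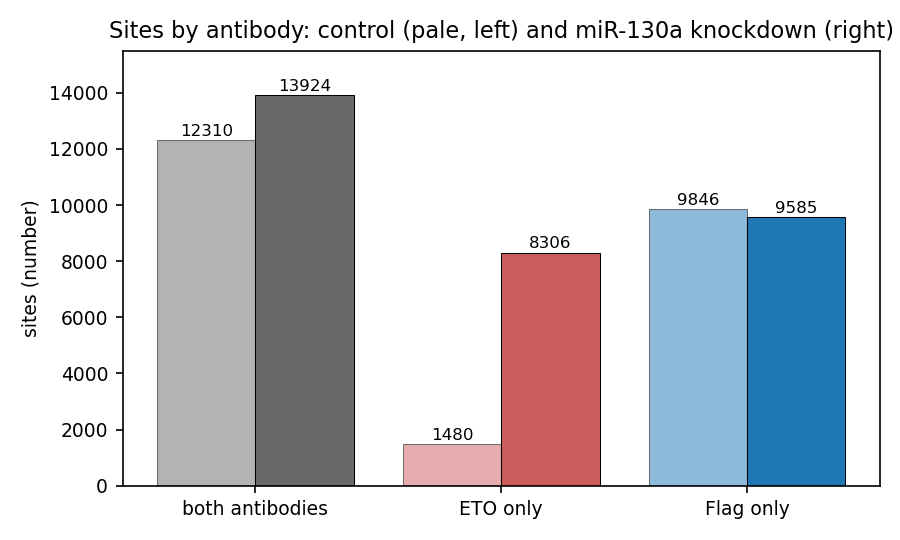
Number of sites (vertical axis) called with both antibodies, with anti-ETO only and with anti-Flag only, in the knockdown and the control lists. In the knockdown 8306 sites were called with anti-ETO only, against 1480 in the control.

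Most sites of both antibodies paired a single call of each. There were 11598 such sites, while 1987 joined 1 ETO peak to several Flag peaks, 257 joined several ETO peaks to 1 Flag peak, and 82 held several of each. BCOR, a Polycomb-linked corepressor gene on the X chromosome, shows the second kind: a 5530-bp ETO peak at chrX:40095367-40100896 covered 7 Flag peaks, the most in any site. In the 1-to-1 pairs, the ETO call was the wider one in 68.2% and the Flag call in 31.4%. The Flag peak lay wholly inside the ETO peak in 50.3% of pairs, and the ETO peak inside the Flag peak in 13.7%. The centres lay a median of 68.5 bp apart (quartiles 19 and 145 bp), and the overlap covered at least 50% of both peaks in 73.4% of pairs.

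Calls made with 1 antibody alone were narrower than calls met by the other. ETO peaks with a Flag peak had a median width of 609.5 bp (quartiles 392 and 1043 bp), against 342 bp (223 and 446 bp) for those without. Flag peaks with an ETO peak had a median of 434 bp (305 and 726 bp), against 287 bp (216 and 383 bp) for those without. Widths of 1 kb or more were reached by 26.8% of ETO peaks with a Flag peak and by 1.46% of those without. The matching shares for Flag peaks were 14.4% and 1.72%. Wider peaks overlap more by length alone, and the lists carry no height, so width and occupancy cannot be told apart here.

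**Figure D2:**
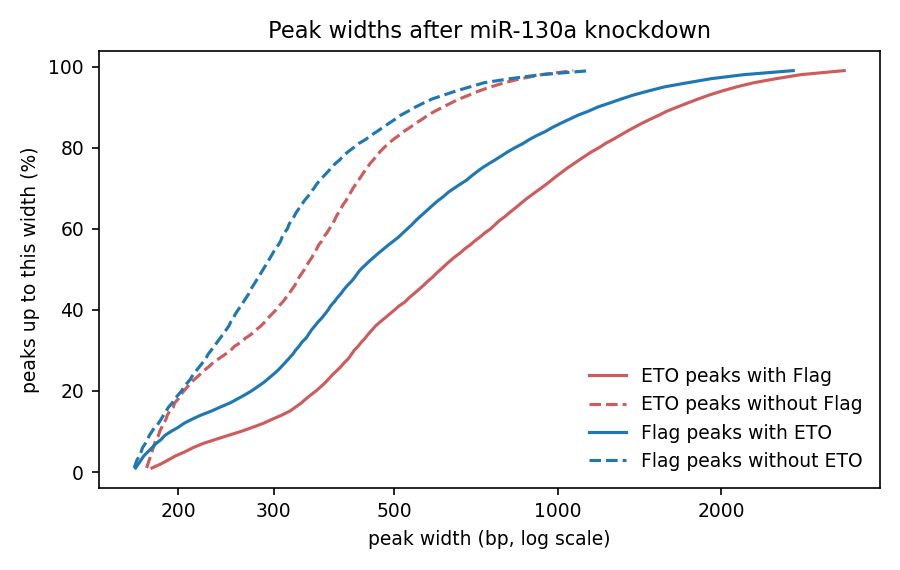
Cumulative share of peaks by width in bp (log axis) for ETO and Flag peaks with and without a peak of the other antibody, as 4 lines from the first to the 99th percentile. Medians were 609.5 and 342 bp for ETO peaks with and without a Flag peak, and 434 and 287 bp for Flag peaks with and without an ETO peak.

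Peaks were divided by width into 10 groups of like size. The share of ETO peaks met by a Flag peak went from 29.0% in the narrowest group (174 to 203 bp) to 99.1% in the widest (from 1354 bp). The share for Flag peaks had its lowest value, 36.0%, in the third group (227 to 276 bp) and reached 93.5% in the widest. In the narrowest group of Flag peaks (165 to 186 bp) it was 51.5%, so the order was not by width throughout.

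The widest sites show what each class can hold. The widest site of both, chr11:1666740-1677254 (10515 bp), was covered by 1 peak of each antibody at FAM99A, a long non-coding RNA gene. The next were a 7112-bp site at ZNF623, a zinc finger gene, and a 7103-bp site at KLF10, a Krüppel-like transcription factor gene. Among ETO-only sites on the numbered chromosomes, the widest was chr5:1799974-1801881 (1908 bp), over MRPL36 and NDUFS6, genes of a mitochondrial ribosomal protein and of a respiratory complex I subunit. It was followed by 1872 bp at HS3ST3B1, a heparan sulfate sulfotransferase gene, and 1814 bp at DEK, which encodes a chromatin protein. Both antibodies had control calls at all 3 of these ETO-only sites. The widest Flag-only site, chr17:82365597-82368439 (2843 bp), lay 1821 bp from TEX19. The next were 2055 bp at IQANK1 and 1978 bp at LINC02878. All 3 of these Flag-only sites had a control call with anti-Flag and none with anti-ETO.

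Many single-antibody sites lay near a call of the other antibody. Of the ETO-only peaks, 17.5% had a Flag peak within 500 bp, 26.2% within 1 kb and 50.5% within 10 kb, with a median distance of 9507 bp. Of the Flag-only peaks, 13.1% had an ETO peak within 500 bp, 23.4% within 1 kb and 77.2% within 10 kb, with a median of 3578 bp. Within 100 kb the shares were 78.9% and 99.4%, so single Flag calls were seldom far from an ETO call. RUNX1 gives an example: ETO-only peaks at chr21:34890872-34891592 and chr21:34892252-34892820 stood just beyond a 3210-bp site of both at chr21:34887393-34890602, which lay 299 bp from a gene start.

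The 2 single-antibody classes lay at different places relative to genes. Site centres were within 1 kb of a gene start for 41.9% of sites of both (41.1 to 42.7%), 43.6% of ETO-only sites (42.5 to 44.7%) and 5.40% of Flag-only sites (4.95 to 5.88%). The ETO-only share exceeded the Flag-only share by 38.2 percentage points (37.0 to 39.4). The share for sites of both differed from that of ETO-only sites by -1.72 points (-3.09 to -0.357), and by 0.985 points, with the opposite sign, when chromosomes 19, 17, 11 and 16 were left out. With at least 100 bp of overlap required it was -0.487 points (-1.85 to 0.869), an interval that spans 0. Flag-only sites lay mostly inside genes away from starts and ends (58.7%, against 35.7% of ETO-only sites and 36.2% of sites of both) or outside genes (30.8%, against 16.95% and 17.9%). These gaps depend on setting the surroundings of starts and ends apart. Over all chromosomes, and with sites near starts and ends included, 61.1% of sites of both, 61.4% of ETO-only and 58.3% of Flag-only sites had their centre in a protein-coding gene, and 29.1%, 29.1% and 33.4% lay outside genes. Gene starts had no entry for chromosome 8 in the table used, so its 1402 sites are left out of the shares by distance to a start or end.

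**Figure D3:**
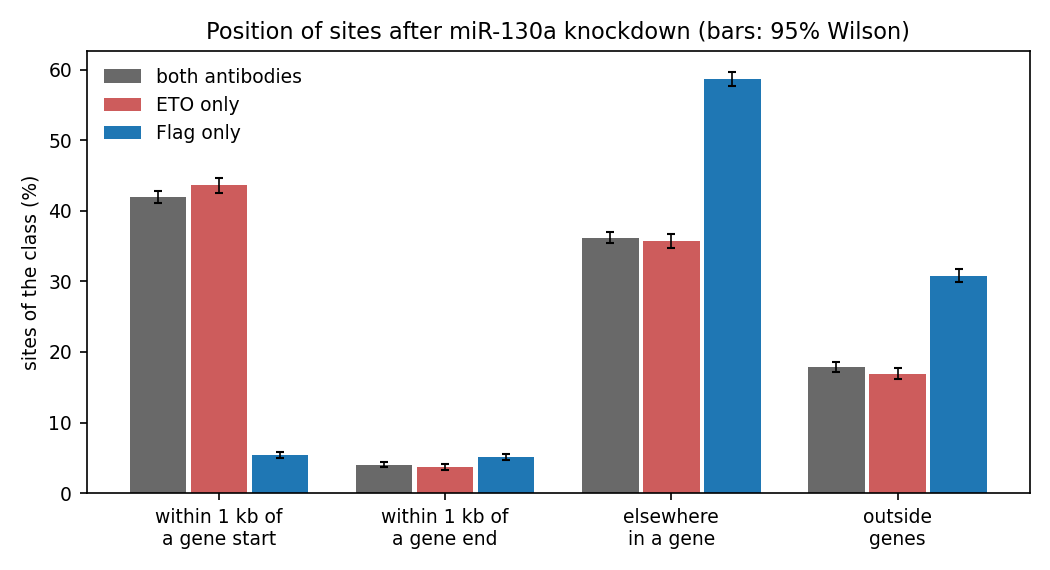
Share of sites (%) of each class within 1 kb of a gene start, within 1 kb of a gene end, elsewhere in a gene and outside genes, with 95% Wilson intervals as error bars. Within 1 kb of a start the shares were 41.9% for both, 43.6% for ETO only and 5.40% for Flag only.

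The start itself fell within 25.7% of sites of both, 14.7% of ETO-only sites and 0.492% of Flag-only sites. Median distances to the nearest start were 2144 bp for sites of both, 1900.5 bp for ETO-only sites and 9735 bp for Flag-only sites. Flag-only sites were nevertheless in gene-rich surroundings, with a median of 8 gene starts within 100 kb, against 7 for sites of both and 5 for ETO-only sites. Among all sites near a start, 58.3% were of both, 36.6% ETO only and 5.02% Flag only. Among sites away from starts the shares were 37.4%, 21.9% and 40.7%. Among sites of 250 to 500 bp, 33.1% of those of both, 37.98% of ETO-only and 5.75% of Flag-only sites lay near a start, so the gap between the single-antibody classes was also present at like width.

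Some gene starts in the corepressor group show the ETO-only pattern. At TBL1XR1, a subunit of the NCoR complexes, the 1 site in the gene or within 10 kb was ETO only, at chr3:177198076-177198552 (477 bp), 832 bp from a start. Its paralog TBL1X had 2 ETO-only sites, of 260 and 183 bp, at 2 and 491 bp from a start. NCOR1, which encodes NCoR, had an ETO-only site of 185 bp at chr17:16215329-16215513, 113 bp from a start, and another of 309 bp over the neighbouring gene PIGL. CREBBP, a histone acetyltransferase gene, had ETO-only sites of 197 and 225 bp at 1411 and 630 bp from a start. The first of these lay beyond 1 kb, and another CREBBP site of 186 bp lay over TRAP1. The TBL1X, NCOR1 and CREBBP sites of 183, 185, 186 and 197 bp were in the narrowest width group of ETO peaks (174 to 203 bp). In that group only 29.0% of peaks met a Flag peak. None of the sites of TBL1XR1, TBL1X or CREBBP had a control call, and of the NCOR1 sites the one over PIGL had an anti-Flag control call. TCF12, an E protein gene, had 2 ETO-only sites at 127 and 125 bp from starts, and both had control calls.

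BATF2 and AZU1 show the opposite arrangement, with several Flag-only sites in a row. BATF2 had 9 Flag-only sites and 1 site of both within 10 kb, spread from chr11:64980774-64981190 to chr11:65003298-65003703, with widths of 186 to 709 bp. Of the 9, 1 had an anti-Flag control call and none an anti-ETO control call. AZU1 had 8 Flag-only sites, 1 ETO-only site of 181 bp inside the gene and 2 sites of both. CD7, a lymphoid surface protein gene in the same stretch of chromosome 17 as the widest Flag-only site, had 9 Flag-only sites and 4 sites of both.

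Flag-only sites were concentrated on few chromosomes. Chromosomes 19, 17, 11 and 16, the 4 densest in protein-coding genes, held 54.8% of Flag-only sites, 38.6% of sites of both and 25.2% of ETO-only sites. There were 2.73 Flag-only sites per ETO-only site on chromosome 11, 2.56 on 17, 2.45 on 19 and 2.31 on 16. Chromosome 8, with 4.92 protein-coding genes per Mb, had 2.78, so gene density alone does not order the chromosomes. The lowest ratios were 0.134 on X, 0.201 on 13 and 0.213 on 2.

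**Figure D4:**
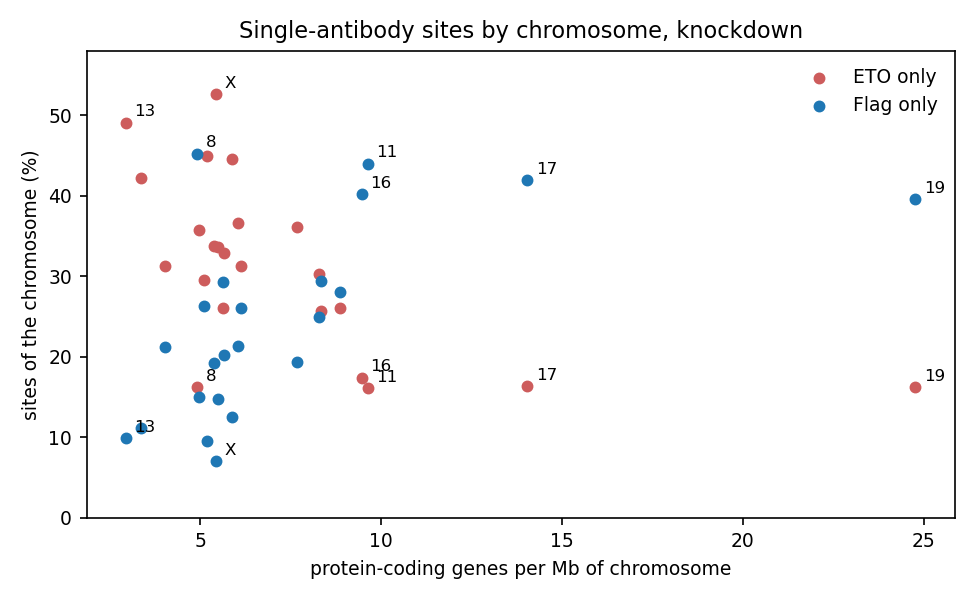
Share of the knockdown sites of each chromosome (%) that were ETO only or Flag only, against protein-coding genes per Mb, with 1 point per class and chromosome. On chromosomes 8, 9, 11, 16, 17, 19, 20 and 22 the Flag-only point lies above the ETO-only point, and on X and 13 far below it.

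Within chromosomes the clustering was local. Flag-only sites occurred in 718 windows of 1 Mb, and 123 windows with 20 or more of them held 77.04% of the class. ETO-only sites occurred in 1701 windows, and the 37 windows with 20 or more held 10.97%. The densest window for Flag-only sites, chromosome 8 from 144 to 145 Mb, held 287 of them with 122 sites of both and 6 ETO-only sites. The next were chromosome 11 from 65 to 66 Mb (255 Flag only, 149 both, 24 ETO only) and chromosome 17 from 82 to 83 Mb (245, 111 and 14). The densest window for ETO-only sites, chromosome 17 from 7 to 8 Mb, held 38 of them with 44 sites of both and 5 Flag-only sites. Neighbouring Flag-only sites therefore share a surrounding and are not independent observations.

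The genes with the most sites of a class in their body repeat this arrangement. ARHGAP39, a GTPase-activating protein gene, led for Flag-only sites with 60 in a body of 171 kb, beside 11 sites of both and 1 ETO-only site. CCDC57 held 52 Flag-only sites with 12 of both and 1 ETO only, and MROH1 held 52 with 12 and 0. NPLOC4, which encodes a cofactor of the p97 ATPase, held 34 with 6 and 0, and PACS1, a sorting protein gene, held 32 with 8 and 1. For ETO-only sites the counts were lower and the genes mostly long. GPHN (gephyrin) held 9 over 1227 kb, with 2 sites of both and no Flag-only site. GSE1, which encodes a subunit of a corepressor complex, and RPTOR, the raptor subunit of mTORC1, held 8 each. BCOR held 7 with 16 sites of both and no Flag-only site, and RIN3, a Rab5 exchange factor gene, held 7. For sites of both, SEPTIN9 led with 34, beside 23 Flag-only sites and no ETO-only site. GSE1 held 31 sites of both with 26 Flag only, BAHCC1 26 with 4, PLEC (plectin) 20 with 7, and ANKRD11, a chromatin regulator gene, 16 with 14.

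Of 19970 protein-coding genes, 39.6% had a site of both in the body or within 10 kb, 36.0% an ETO-only site and 20.3% a Flag-only site, and 55.2% had any site. All 3 classes met at 10.4% of genes. ETO-only sites were the only sites at 2576 genes (12.9%), Flag-only sites at 278 genes (1.39%), and the 2 single-antibody classes without a site of both at 267 genes (1.34%). So few genes had Flag-only sites alone, although that class held more sites than the ETO-only class. Genes within 10 kb of each other share sites, and long genes have more. The gene lists that follow are described by counts against these shares of all protein-coding genes, with no test.

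The genes of the fusion's own family had sites of all classes. Of 7 genes, 6 had a site of both (85.7%, against 39.6% of all genes) and 5 an ETO-only site (71.4%, against 36.0%). A Flag-only site was at 5 (71.4%, against 20.3%). RUNX1 had 9 sites of both, 6 ETO only and 2 Flag only within 10 kb. RUNX2 had 3, 2 and 1, RUNX3 3, 2 and 4, and CBFB 4, 2 and 6. CBFA2T3, an ETO family corepressor gene, had 10 sites of both, 2 ETO only and 13 Flag only, whereas its relative CBFA2T2 had 2 of both and no other. RUNX1T1, the source of the ETO portion, had no site in any class.

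Transcription factors known to sit with AML1-ETO in a complex had sites at 7 of 9 genes. Of the 9, 5 had a site of both (55.6%, against 39.6% of all genes) and 5 an ETO-only site (55.6%, against 36.0%). A Flag-only site was at 2 (22.2%, against 20.3%). The E protein gene TCF3 had 8 of both and 4 Flag only, and LYL1, a bHLH factor gene, had 5 of both, 2 ETO only and 3 Flag only. The adaptor gene LDB1 had 3 of both and 4 ETO only, and its partner LMO2 had 2 of both. Among ETS factor genes, ERG had 1 of both and 3 ETO only, and FLI1 had 1 ETO only. TCF12 had 2 ETO only, and TCF4 and TAL1 had none.

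Of 14 corepressor and coactivator genes, 10 had a site of both (71.4%, against 39.6% of all genes) and 11 an ETO-only site (78.6%, against 36.0%). A Flag-only site was at 5 (35.7%, against 20.3%). ETO-only sites were the only class at 4 of the 14 (NCOR1, TBL1X, TBL1XR1 and CREBBP), and at 12.9% of all genes. The scaffold gene SIN3A had 5, 2 and 1. Of the histone deacetylases bound by these complexes, HDAC1 had 1, 3 and 0, HDAC2 1, 0 and 0, and HDAC3 3, 1 and 1. GPS2, another subunit of the NCoR complexes, had 3, 1 and 0. Among acetyltransferases EP300 had 2, 1 and 1, and KAT2B had 2 of both alone. Of the arginine methyltransferases PRMT1 had 3, 2 and 0, and CARM1 had 5, 0 and 4.

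Reported target genes of AML1-ETO mostly had sites of both. Of 14 genes, 10 had a site of both (71.4%, against 39.6% of all genes). An ETO-only site was at 7 (50%, against 36.0%) and a Flag-only site at 6 (42.9%, against 20.3%). A share of sites of both above that of all genes was not particular to target genes. It was 63.3% for cytosolic ribosomal protein genes and 91.1% for core histone genes. Lymphoid markers (7 of 21) and markers of non-blood tissues (3 of 25) lay below it. OGG1, a DNA repair glycosylase gene, had 6 sites of both and 3 Flag only, among them a 2635-bp site of both at chr3:9748659-9751293, 24 bp from a start. UBASH3B, a phosphatase gene, had 4 of both, 4 ETO only and 1 Flag only, with the site of both at chr11:122655462-122656287 153 bp from the start. LAT2, an adaptor of immune receptors, had 4, 0 and 2, and the Notch ligand gene JAG1 had 2, 1 and 1. ID1, an inhibitor of bHLH factors, and the cyclin gene CCND2 each had 1 of both and 1 ETO only. The erythroid factor gene NFE2 had 1, 0 and 2, the P-selectin ligand gene SELPLG 1, 3 and 0, the survival gene BCL2 2, 1 and 0, and UBASH3A 1 of both alone. POU4F1, CDKN2A and TRH had no site.

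Myeloid regulators had the 3 classes in the same order as all protein-coding genes. Of 22 transcription factor genes, 13 had a site of both (59.1%, against 39.6% of all genes) and 12 an ETO-only site (54.5%, against 36.0%). A Flag-only site was at 5 (22.7%, against 20.3%). SPI1 (PU.1) had 4 of both, 1 ETO only and 1 Flag only. GFI1 had 2 of both and 2 ETO only, and its printed window lay in a 5652-bp site at chr1:92483327-92488978. HHEX had 3, 1 and 2, with a 3660-bp site of both at chr10:92688718-92692377, and ETV6 had 2, 3 and 1. Outside the naming rule, and chosen after their values were seen, CEBPD had 3 ETO-only sites alone and CEBPA had 1 of both and 1 Flag only.

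Of 17 neutrophil granule genes, 11 had a site of both (64.7%, against 39.6% of all genes) and 6 an ETO-only site (35.3%, against 36.0%). A Flag-only site was at 8 (47.1%, against 20.3%). The serine protease genes ELANE and PRTN3 had 10 of both, 1 ETO only and 4 Flag only, and 9, 0 and 5. They neighbour AZU1 on chromosome 19, and the 3 genes share sites. LCN2, a siderophore-binding granule protein gene, had 2 of both and 4 Flag only. Their counts are therefore not those of independent genes.

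Growth factor receptor genes had a site of both at 6 of 13 (46.2%, against 39.6% of all genes). They had ETO only at 7 (53.8%, against 36.0%) and Flag only at 3 (23.1%, against 20.3%). IL6R had 5 of both and 5 Flag only, EPOR (the erythropoietin receptor) had 7, 1 and 1, IGF1R had 1, 4 and 0, and IL3RA had 0, 3 and 1. KIT, named after its values were seen, had 3 sites of both alone. Of 18 surface protein genes, 10 had a site of both (55.6%), 8 ETO only (44.4%) and 4 Flag only (22.2%). ITGB2, the shared beta chain of leukocyte integrins, had 9, 3 and 1, its partner ITGAM 3, 1 and 4, SPN (CD43) 6, 2 and 3, and CD33 1, 2 and 1.

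Cell cycle and survival genes had sites of all 3 classes. Of 20 cyclin and CDK genes, 13 had a site of both (65.0%, against 39.6% of all genes). ETO-only sites were at 12 (60.0%, against 36.0%) and Flag-only sites at 6 (30.0%, against 20.3%). CCND3 had 9, 3 and 4, CDKN2D 5, 1 and 3, CDKN1C 4, 0 and 4 and E2F1 4, 2 and 1. Of 16 BCL2 family genes, 9 had a site of both (56.25%), 10 ETO only (62.5%) and 4 Flag only (25%). BBC3 (7, 0 and 6) and BAD (8, 0 and 4) had no ETO-only site. BAX, a pro-apoptotic gene as they are, had 2, 2 and 1, and BCL2L2 had 2, 3 and 0.

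AP-1 genes had a site of both at 11 of 14 (78.6%, against 39.6% of all genes). They had ETO only at 10 (71.4%, against 36.0%) and Flag only at 8 (57.1%, against 20.3%). MAFG had 10, 0 and 9, FOSL1 8, 1 and 2, and JUNB 7, 1 and 2. TGF-beta and SMAD pathway genes had 10, 8 and 4 of 19 (52.6%, 42.1% and 21.1%). SKI had 10, 2 and 9, TGFB1 10, 0 and 4, SKIL 2, 1 and 2 and TGFBR1 4, 1 and 0. Genes co-mutated in t(8;21) leukaemia had a site of both at 12 of 20 (60.0%), ETO only at 13 (65.0%) and Flag only at 4 (20.0%). Besides BCOR (17, 7 and 0 with its flanks), KMT2D had 8, 1 and 2, ZBTB7A 4, 3 and 3, and ASXL2 4, 2 and 2.

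Lists for other cell types and for housekeeping functions give the range, beside shares of 39.6%, 36.0% and 20.3% over all protein-coding genes. Markers of non-blood tissues had a site of both at 3 of 25 genes (12%), ETO only at 2 (8%) and Flag only at 2 (8%). No site was at 21 of them. MBP had 1 of both and 6 ETO only, COL1A1 2 of both and 1 Flag only, SYP 1 of both and 1 ETO only, and INS 1 Flag only. Lymphoid markers had 7, 7 and 4 of 21, with CD79A at 4, 2 and 1, CD4 at 3, 0 and 1 and NKG7 at 3, 0 and 1. Cytosolic ribosomal protein genes had 50, 36 and 23 of 79 (63.3%, 45.6% and 29.1%). Examples were RPL19 (3, 4 and 5), RPL8 (4, 1 and 7) and RPLP2 (5, 3 and 4). Proteasome subunit genes had 21, 23 and 10 of 38 (55.3%, 60.5% and 26.3%). They were led by PSMD13 (3, 0 and 8), PSMA7 (6, 2 and 0), PSME1 (5, 1 and 2) and PSMB3 (3, 1 and 3). Core histone genes, which lie in clusters and share sites, had 41, 40 and 28 of 45 (91.1%, 88.9% and 62.2%). Examples were H3C4 at 7, 4 and 4, H4C5 at 7, 3 and 4, H2BC7 at 6, 3 and 4 and H2BC5 at 3, 4 and 5.

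**Figure D5:**
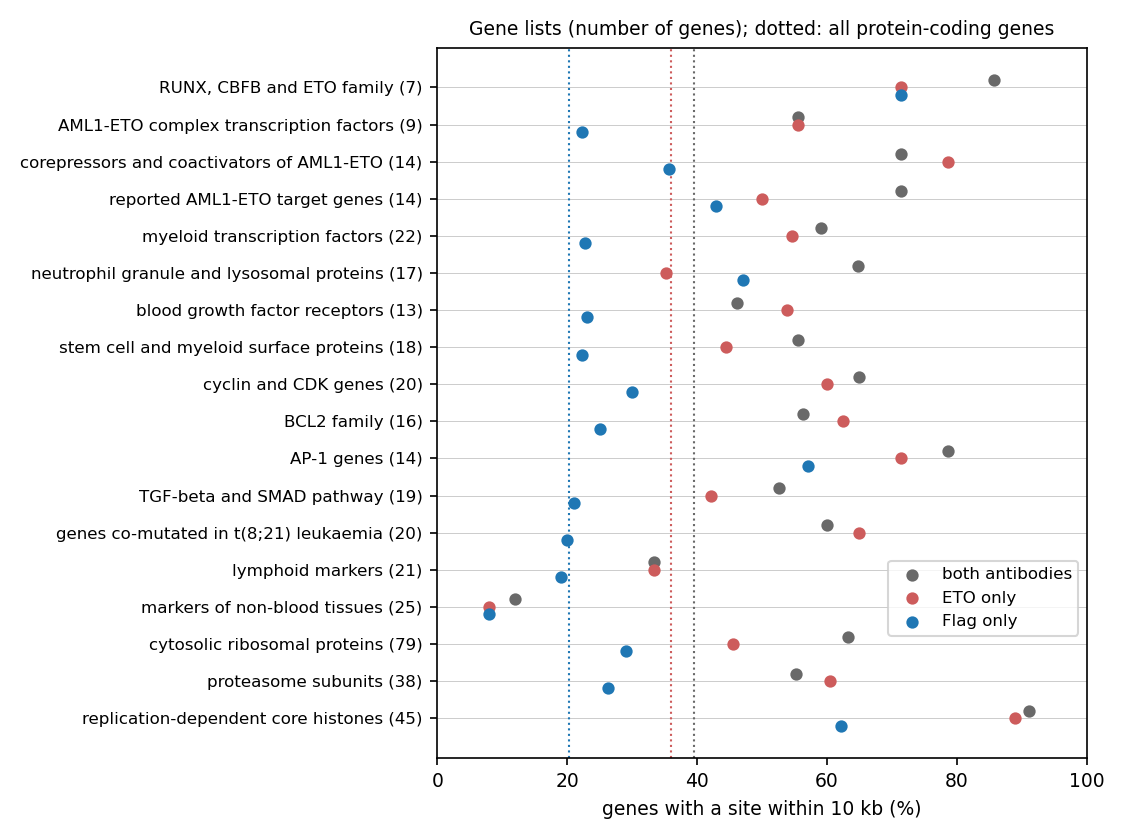
Share of the genes of each list (%) with a site of both, ETO only or Flag only in the body or within 10 kb, with dotted lines at the shares over all protein-coding genes (39.6%, 36.0% and 20.3%). Core histone genes have the highest shares for sites of both and ETO only, the RUNX, CBFB and ETO family for Flag only (5 of 7 genes), and markers of non-blood tissues the lowest for all 3 classes.

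The control lists, which the classes do not use, met the classes to unequal extents. A control call needed only 1 bp of overlap with the site, and wider sites overlap more by length alone. Median widths were 724 bp for sites of both, 342 bp for ETO-only and 287 bp for Flag-only sites. Of the sites of both, 67.4% had a control ETO call, 84.7% a control Flag call and 13.3% no control call. Of the ETO-only sites, 37.9% had a control ETO call, 48.1% a control Flag call and 44.3% none. Both control calls were present at 30.3% of them. Over all knockdown sites, 39.9% had a control ETO call and 54.7% a control Flag call, the same order. Of the Flag-only sites, 1.51% had a control ETO call, 16.9% a control Flag call and 82.9% none. So 9846 control Flag-only sites and 9585 knockdown Flag-only sites were of like number, but only 16.9% of the latter met any control Flag peak.

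Sites without a control call were narrower in each class. Median widths with and without a control call were 795 and 441.5 bp for sites of both, 379 and 303 bp for ETO-only sites, and 332 and 277 bp for Flag-only sites. Shares near a start also differed, at 45.1% with and 21.2% without a control call for sites of both, 49.2% and 36.7% for ETO-only sites, and 8.91% and 4.69% for Flag-only sites. The gap between ETO-only and Flag-only sites was therefore present in both subsets.

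Start windows of all genes in the table were searched for short motifs. Of 34961 windows, 18.5% overlapped a site of both, 8.67% an ETO-only site and 0.398% a Flag-only site. The RUNX core TGTGGT, searched on both strands, was in 13.1% of all windows, 10.3% of the 6260 windows with sites of both alone, 8.84% of the 2806 with ETO-only sites alone, 18.5% of the 119 with Flag-only sites alone (12.5 to 26.4%) and 14.2% of the 25543 with no site. The windows differed in base composition, with median GC contents of 68.0% for both, 67.0% for ETO only, 60.0% for Flag only and 53.7% for no site. Windows were then divided by GC into 5 groups of like size. In the group with the lowest GC, TGTGGT was in 30.5% of windows of both (22.2 to 40.4%, n = 95) and 17.7% of windows without a site, and in the group with the highest GC in 6.21% and 3.83%. In the 3 groups between, the shares for both and for no site were 18.9% and 19.1%, 14.04% and 13.97%, and 10.4% and 9.47%. The lower share of windows of both in the pooled figures was therefore present only at 44.7 to 54.3% GC, where the intervals overlapped. ETO-only windows held TGTGGT less often than windows without a site in that group (12.3%, 8.63 to 17.2%, against 19.1%). Their share was also lower at 54.3 to 62.3% GC (13.1% against 13.97%) and 62.3 to 70% (7.85% against 9.47%), with overlapping intervals. In the lowest and highest GC groups it was higher (28.6%, n = 35, against 17.7%, and 5.63% against 3.83%), also with overlapping intervals. TGTGGTT, a longer RUNX core that contains TGTGGT, was in 3.32% of windows of both and 4.65% of windows without a site. The variant TGCGGT was in 13.9% and 5.25%, the opposite order. Only TGTGGT was compared within GC groups, and whether these other differences hold at like GC was not tested. ETO-only windows held TGCGGT in 10.8% (9.74 to 12.04%), below windows of both (13.1 to 14.8%).

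The ETS core CCGGAA was in 17.3% of all windows, 28.1% of windows of both, 33.2% of ETO-only, 22.7% of Flag-only and 12.7% of windows with no site. GGGCGG was in 45.03% of all, 76.997% of both, 75.2% of ETO only, 46.2% of Flag only and 33.6% of windows with no site. The AP-1 motif TGANTCA was in 7.68% of all, 3.66% of both, 3.81% of ETO only and 5.88% of Flag only, the E-box CAGCTG in 18.0%, 16.8%, 15.6% and 26.9%, and CCAAT in 34.6%, 35.0%, 34.4% and 26.1%. All were searched on both strands, and none of these motifs was compared within GC groups. Between windows of both and ETO-only windows, the intervals of CCGGAA (26.97 to 29.2% and 31.5 to 34.9%) did not overlap. A match is a description of the letters and not a binding site.

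The authors' deposited list of knockdown peaks shared by the antibodies held 13712 intervals. All of them overlapped a site of both, and 13564 had the same start and end. With at least 100 bp of overlap required, 13725 sites of both were formed and 13699 intervals were identical. The other 212 sites of both at 1 bp had no deposited interval.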

How the data were processed

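AML1-ETO binding was profiled by CUT&RUN in 18 libraries of Kasumi-1, in 6 groups of 3. Per the submitters' processing notes, fastp 0.19.5, Bowtie2 2.3.5, MACS2 2.2.5 and HOMER 4.8 and the builds hg38 and sacCer3 were used, with no roles or thresholds named. The authors deposited BED intervals without scores, 1 list per antibody and condition, and 5 such lists were used here. Replicates are pooled in each list in a way not given in the sources used here. How peaks were thresholded and whether IgG served as background set every count below.

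Peaks were merged into sites at 1 bp of overlap. Gene bodies (59094 genes, 19970 protein-coding) and 34961 start windows came from RefSeq GRCh38.p14, the release of hg38. All 404 genes of the 18 lists matched, and 310 had a start window. Site centres gave positions. Python 3.11.15, numpy 2.4.6 and pandas 2.3.3 were used, and the overlap functions were tested on simulated lists. The planned motif search around site centres was limited to start windows.

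Named genes were all members of the first 4 lists, up to 4 per other list by number of sites, the 5 genes with most sites per class, the 3 widest sites per class on numbered chromosomes and X, and the printed windows. Some of these genes are not reported here. The members, lists and rules were chosen with earlier results of these data known. Alternatives were other overlaps, widths, distances, list lengths and motif cores. No p-value was computed.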

Additional observations from a re-analysis of the deposited data

How the results depend on the processing

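No paired analysis was possible because the 3 libraries of a group are pooled in 1 list and no result comes from a test. For the same reason leaving out each replicate in turn could not be run. Of 79 alternatives over 17 results, 53 stayed within the error or within 1.5 times, 24 moved and 2 changed sign. Requiring 50% of both peaks gave 13258 ETO-only and 16625 Flag-only sites, with median widths of 578 and 399.5 bp for ETO peaks with and without Flag, and 527 and 310 bp for Flag peaks with and without ETO. The wider 50% of each list gave 7177 sites of both, 4017 ETO only and 4819 Flag only. The start share of ETO-only minus Flag-only sites (38.2 points) became 33.3 within 500 bp, 35.75 with protein-coding starts, 39.9 in the wider 50%, 39.8 with the Flag list shortened to the ETO length and 37.0 at 100 bp of overlap. For sites of both minus ETO only (-1.72), the values were -4.19 within 500 bp, -3.47 in the wider 50% and -4.11 with the shortened list, but -0.487 (-1.85 to 0.869) at 100 bp, -0.944 (-2.32 to 0.436) within 2.5 kb and, chosen after seeing the data, -0.673 (-2.17 to 0.815) with gaps of up to 500 bp joined. Also added later, sites of 250 to 500 bp gave 32.2 and -4.89, and leaving out chromosomes 19, 17, 11 and 16 gave 0.985 (-0.686 to 2.66) for the second. The Flag-only minus ETO-only share on those chromosomes (29.55 points, also added) was 32.2 with gaps of up to 500 bp joined. In gene bodies alone, 4519 genes had an ETO-only and 2350 a Flag-only site, and with 50 kb flanks 173 genes had Flag-only sites alone. The TGTGGT share of windows of both minus windows with no site (-3.96 points) was -1.33 for TGTGGTT and 8.70 for TGCGGT, all pooled over GC. The cause of these shifts was not tested beyond what fewer peaks, a narrower rule or another motif bring. Depth is unknown, so an absent call is not an absent protein.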

Other observations

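Outside the numbered chromosomes and X, the anti-ETO list held 2 intervals on the mitochondrial genome, of 431 and 15932 bp, and the anti-Flag list held none. Both count among the ETO-only sites, and the second is the widest peak of the anti-ETO list.

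No site of any class lay within 10 kb of MIR130A, the gene of the microRNA that was knocked down, at chr11:57641198-57641286. Some genes of myeloid cells had sites of a single class, and they are given after their values were seen. SRGN, which encodes the proteoglycan serglycin, had 1 Flag-only site, while CSF3R (3), CD34 (1), FLT3 (1) and MCL1 (1) had ETO-only sites alone. In their lists, ETO-only sites were the only class at 3 of 13 receptor, 2 of 18 surface protein and 3 of 16 BCL2 family genes. Flag-only sites were the only class at 1 of 17 granule genes. Over all protein-coding genes these shares were 12.9% and 1.39%. MPO, the myeloperoxidase gene, had 2 sites of both, 1 ETO only and 2 Flag only.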
